A study of Homo sapiens with 18 samples.

Results

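The 57 genes described here encode developmental homeobox and paired-box transcription factors outside the HOX clusters. They were chosen by name and fall into 8 families, with 8 PAX genes, 10 LIM homeobox genes (LHX and ISL), 6 NKX genes, 3 genes named SIX2, SIX3 and SIX6, 6 DLX genes, 7 TALE homeobox genes (IRX and MEIS2), 5 PRD-like genes (OTX, GSC and PITX) and 12 genes of the EMX, EN, GBX, MSX, BARHL, VAX and DBX families. All 57 were found among the 19675 protein-coding genes used for comparison. The marks were read by chromatin immunoprecipitation sequencing (ChIP-seq) in V16D, a castration-resistant prostate cancer cell line derived from LNCaP. The cells had been transduced with a control lentiviral vector (V16D/CTL) or with a lentiviral vector overexpressing the long noncoding RNA H19 (V16D/H19), and the comparison asks how the H3K4me3 and H3K27me3 marks differ when H19 is overexpressed. Each group had 3 biological replicates with 1 library of either mark per replicate, which gave 12 peak libraries beside 6 inputs. Both arms come from a single cell line, and the peak lists hold no measure of the H19 transcript itself.

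The homeobox and paired-box factors bind DNA and set the identity of tissues and neuronal types in the embryo, and in most adult epithelia the bulk of them are silent. Their promoters are rich in CpG and are classic targets of Polycomb repressive complex 2, which deposits H3K27me3 in wide domains over silent developmental genes. H3K4me3 marks promoters that are active or poised, and a region carrying both marks is called bivalent. Several of these factors, among them NKX2-1, NKX2-2 and ISL1, are known for roles in neuroendocrine tissues.

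Promoters of 6 genes are printed to show the sequences under the marks, 1 for each pattern described below. They come from RefSeq (GRCh38.p14), run 5′ to 3′ over 300 bases that include a transcription start, and carry each CpG dinucleotide in capitals. The promoter of DLX1 (chr2:172085257-172085556, plus strand) lay under H3K4me3 in all 6 libraries and under H3K27me3 in 0. The promoter of LHX4 (chr1:180230014-180230313, plus strand) also lay under H3K4me3 in all 6 and under H3K27me3 in 0, although H3K27me3 peaks flanked it on both sides. The promoter of GBX1 (chr7:151167645-151167944, minus strand) carried both marks in all 6 libraries. The start of PAX2 at chr10:100745332-100745631 (plus strand) carried H3K4me3 in all 6 libraries, and H3K27me3 in the 3 V16D/CTL libraries and in 0 of the V16D/H19 libraries. The 300 bases printed for BARHL1 (chr9:132582356-132582655, plus strand) had no H3K4me3 peak. They lay under H3K27me3 in the 3 V16D/CTL libraries and in 0 of the V16D/H19 libraries. Within 1 kb of the BARHL1 start, H3K27me3 was called in all 6 libraries, and H3K4me3 in V16D/H19 replicates 2 and 3. The promoter of DLX6 (chr7:97005303-97005602, plus strand) lay under H3K27me3 in all 6 libraries and under H3K4me3 in 0.
DLX1: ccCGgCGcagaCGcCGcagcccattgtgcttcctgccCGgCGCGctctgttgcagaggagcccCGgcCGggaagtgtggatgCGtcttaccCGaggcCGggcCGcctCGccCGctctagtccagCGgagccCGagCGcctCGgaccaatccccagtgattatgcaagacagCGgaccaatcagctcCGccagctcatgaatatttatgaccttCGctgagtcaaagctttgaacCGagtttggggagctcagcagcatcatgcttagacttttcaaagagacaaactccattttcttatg
LHX4: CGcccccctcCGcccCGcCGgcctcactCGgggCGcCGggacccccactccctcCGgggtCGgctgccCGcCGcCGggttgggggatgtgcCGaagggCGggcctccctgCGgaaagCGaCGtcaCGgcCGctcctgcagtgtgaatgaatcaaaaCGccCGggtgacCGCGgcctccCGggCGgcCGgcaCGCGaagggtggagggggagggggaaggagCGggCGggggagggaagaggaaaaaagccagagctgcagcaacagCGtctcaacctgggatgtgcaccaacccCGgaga
GBX1: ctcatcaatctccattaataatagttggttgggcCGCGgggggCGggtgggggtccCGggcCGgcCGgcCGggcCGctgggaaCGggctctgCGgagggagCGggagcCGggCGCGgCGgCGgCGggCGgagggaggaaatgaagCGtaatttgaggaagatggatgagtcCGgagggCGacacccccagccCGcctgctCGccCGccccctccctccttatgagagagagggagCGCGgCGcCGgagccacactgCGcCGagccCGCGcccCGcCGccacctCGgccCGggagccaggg
PAX2: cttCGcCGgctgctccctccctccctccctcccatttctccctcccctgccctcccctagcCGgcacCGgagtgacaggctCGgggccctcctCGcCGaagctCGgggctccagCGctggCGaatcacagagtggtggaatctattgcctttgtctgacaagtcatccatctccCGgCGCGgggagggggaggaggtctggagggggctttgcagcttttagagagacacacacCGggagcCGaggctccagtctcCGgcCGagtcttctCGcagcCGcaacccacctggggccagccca
BARHL1: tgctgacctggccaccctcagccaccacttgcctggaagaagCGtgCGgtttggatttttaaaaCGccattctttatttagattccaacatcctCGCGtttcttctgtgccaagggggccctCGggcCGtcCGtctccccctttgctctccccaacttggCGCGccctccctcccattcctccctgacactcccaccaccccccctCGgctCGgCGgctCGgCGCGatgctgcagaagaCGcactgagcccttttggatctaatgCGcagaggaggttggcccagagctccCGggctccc
DLX6: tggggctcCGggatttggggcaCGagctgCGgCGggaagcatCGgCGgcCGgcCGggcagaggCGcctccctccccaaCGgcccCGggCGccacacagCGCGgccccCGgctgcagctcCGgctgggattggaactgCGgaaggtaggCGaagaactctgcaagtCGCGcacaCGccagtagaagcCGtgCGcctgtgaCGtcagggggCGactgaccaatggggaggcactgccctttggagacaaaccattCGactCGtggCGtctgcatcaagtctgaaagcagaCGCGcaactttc

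The promoters printed hold 19 to 36 CpG dinucleotides in 300 bases. RefSeq sequences were found for 43 of the 57 genes, and with the sequence nearest to the gene start the median was 28 CpG for these 43 against 22 for the 15843 protein-coding genes with a sequence. The 10 genes with a sequence that carried both marks in every library had a median of 33.5 CpG, against 26 for the 1260 such protein-coding genes. The 5 with H3K27me3 alone had 23, against 7 for the 557 protein-coding genes with H3K27me3 alone. The homeodomain core TAAT, searched as TAAT or ATTA so that both strands are read, was present in 25 of the 43 sequences (58.1%) and in 42.3% of all protein-coding sequences. These are descriptions of short windows, and a match is no evidence of binding.

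The 12 peak lists held 20048 to 21934 H3K4me3 peaks and 55060 to 72289 H3K27me3 peaks per library. Read depth was not analysed here, so a missing peak means that none was called at the threshold of the authors, and no interval for counting error can be given. H3K27me3 peaks with a −log10 q of at least 5 made up 0.912% to 0.967% of the V16D/CTL lists and 0.252% to 0.301% of the V16D/H19 lists, a difference over the whole series that stands beside every H3K27me3 result below. The prostate luminal origin of the line was visible in the lists: all 8 luminal markers (KLK3 and TMPRSS2 among them) had an H3K4me3 promoter peak in all 6 libraries, while 0 of 4 basal, 0 of 4 immune and 1 of 5 stromal markers did.

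A gene window runs from 3 kb upstream of the gene start to the gene end, and its covered length is the part of it that lies under peaks. By calls in these windows, 14 of the 57 genes (24.6%) carried both marks in all 6 libraries, against 8.21% of all protein-coding genes. Another 14 genes (24.6%) had H3K4me3 in all 6 libraries and no H3K27me3 peak in any, against 51.7% of all genes. H3K27me3 in all 6 libraries without any H3K4me3 was seen for 7 genes (12.3%), against 3.78% of all genes. Neither mark was called in any library for 3 genes (5.26%), against 18.4% of all genes, and the remaining 19 genes had calls in some libraries only. The 3 genes without either mark were NKX2-3, NKX2-5 (a cardiac factor) and IRX6. The heat map of covered lengths shows these states gene by gene.

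**Figure D1:**
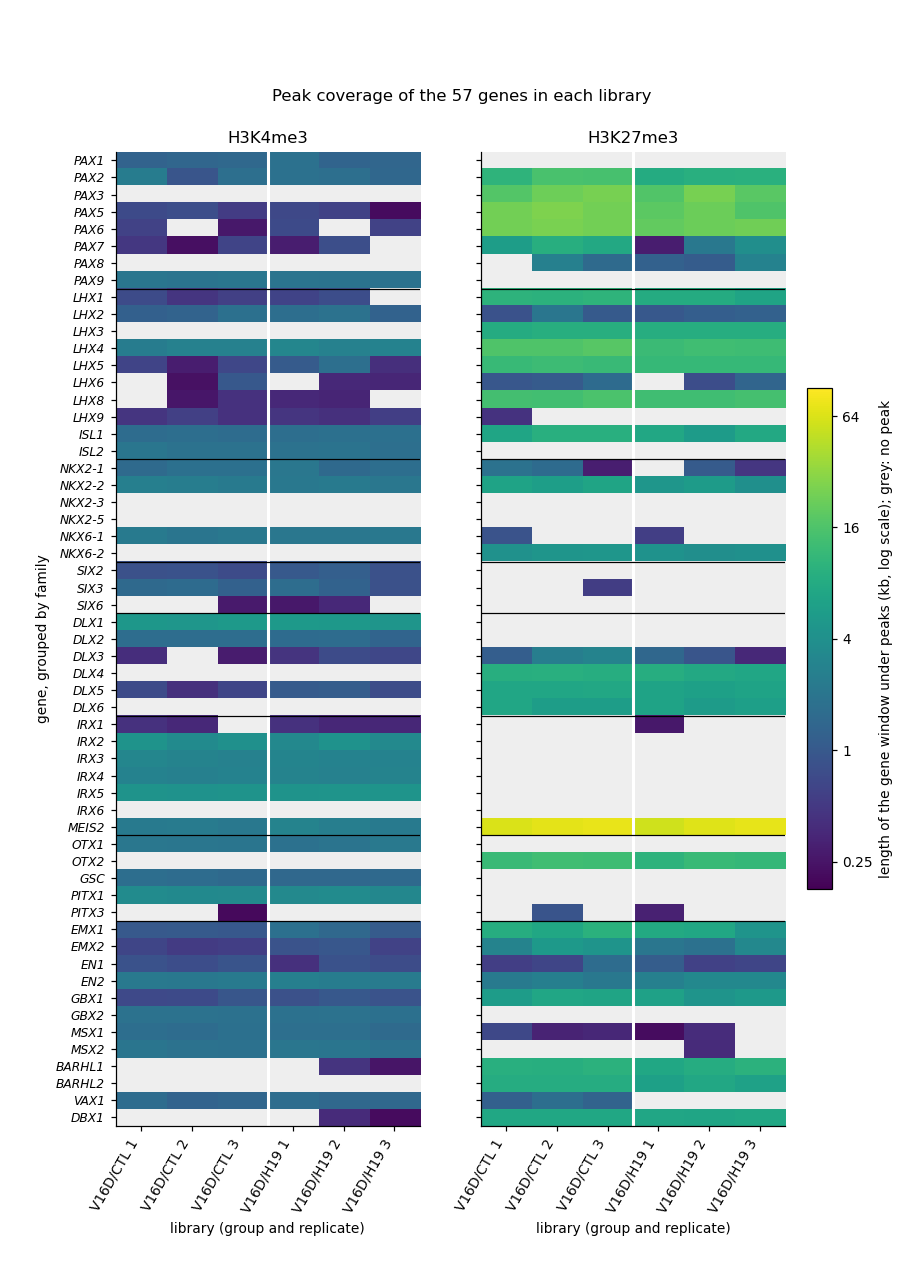
Length of each gene window under H3K4me3 peaks (left) and H3K27me3 peaks (right) in the 12 libraries, in kb on a log colour scale with grey for no peak, the 57 genes in rows grouped by family. MEIS2 had the longest H3K27me3 coverage (58.0 to 74.0 kb), the H3K4me3 columns differ little between the groups, and VAX1 is grey for H3K27me3 in the 3 V16D/H19 libraries.

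The families differed in which state prevailed. Of the 6 IRX genes, which pattern limbs, heart and neural tissue, none had H3K27me3 in more than 1 library. IRX2, IRX3, IRX4 and IRX5 carried H3K4me3 in every library over 2.65 to 4.43 kb. MEIS2, a cofactor of HOX proteins, was the opposite case within the TALE genes, with H3K27me3 over 63.4, 69.4 and 74.0 kb in V16D/CTL versus 58.0, 66.6 and 71.1 kb in V16D/H19, about a 30.3% to 32.0% share of its 215.1 kb window in the group means. Its H3K4me3 promoter peak was present in all 6 libraries as well. SIX2, SIX3 and SIX6 together had a single H3K27me3 peak, over SIX3 in V16D/CTL replicate 3. Among the DLX genes the 3 neighbouring pairs differed: DLX1 and DLX2, which lie 9.76 kb apart, carried H3K4me3 without H3K27me3, whereas DLX5 and DLX6 (9.36 kb apart) and DLX3 and DLX4 (15.0 kb apart) carried H3K27me3 in all 6 libraries. In 2 of the 6 libraries, V16D/CTL replicates 1 and 3, a single H3K27me3 peak of 15.1 and 18.1 kb reached over both DLX5 and DLX6, so these 2 genes are not independent.

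In the PAX family the windows of PAX3, PAX5 and PAX6 were the richest in H3K27me3. PAX6, a master factor of the eye and forebrain, was covered over 24.0, 25.5 and 23.9 kb in V16D/CTL versus 20.1, 22.5 and 23.6 kb in V16D/H19, which is 76.7% and 69.1% of its window on average. PAX5, the B-cell identity factor, was covered over 23.8, 26.8 and 23.8 kb against 18.8, 22.5 and 16.2 kb. For both genes every V16D/H19 library was below every V16D/CTL library, and neither difference passed the test described below. PAX1 and PAX9, which act in the axial skeleton and pharyngeal pouches, had no H3K27me3 peak in any library. Per library, H3K27me3 was called in 5 to 6 of the 8 PAX windows and in 7 to 9 of the 10 LIM homeobox windows. The LIM gene LHX3, which specifies pituitary cells and motor neurons, was covered over 8.31 to 8.93 kb (73.3% and 73.0% of its window in the group means) without any H3K4me3 peak, while its close relative LHX4 carried both marks. The genes DBX1, DLX4, DLX5, LHX5, OTX2 and BARHL2 had 94.5% to 100% of their windows covered by H3K27me3 in V16D/CTL on average.

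In the median, H3K4me3 was wider and of higher fold at genes without H3K27me3 than at genes with both marks, and single genes ran against this. The 14 genes with H3K4me3 alone had a median covered length of 1.98 kb and a median fold over input of 36.4 at the highest peak, averaged over the 6 libraries. The 14 genes with both marks had medians of 1.36 kb and 11.9. Over all protein-coding genes the same 2 states had median folds of 51.2 and 21.6, so the ordering was shared with the genome and the values of these developmental genes were lower in both. Within the genes with both marks the fold ranged from 5.82 to 32.5. LHX4 and ISL1 stood high, with LHX4 at 30.4, 33.5 and 33.3 in V16D/CTL versus 18.5, 41.6 and 37.5 in V16D/H19. PAX5 stood low, at 5.68, 6.73 and 6.98 against 5.15, 5.86 and 4.53. SIX2, without H3K27me3, was low at 6.51 to 11.9, and MSX1, with H3K27me3 in 5 of 6 libraries, was high at 37.1 to 71.3. The classes were set with these same libraries, so these levels are descriptions without a test.

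The longest H3K4me3 coverage was found at DLX1, a factor of forebrain interneurons, which had 4.77, 4.72 and 5.05 kb in V16D/CTL versus 5.05, 4.86 and 4.55 kb in V16D/H19. IRX5 followed with 4.22 to 4.43 kb and IRX2 with 3.25 to 4.32 kb over the 6 libraries. The groups overlapped for all 3 genes. The highest folds were seen at PITX1, a hindlimb and pituitary factor, with 43.5 to 71.2, and at MSX1 and MSX2, with 37.1 to 76.1, and there too the groups overlapped.

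The position of the H3K4me3 peak was not always at the outermost gene start. PAX2, PAX9, LHX9 and IRX4 had no peak within 1 kb of that start although their windows held H3K4me3 in all 6 libraries. For the last 3, the highest peak was centred 4.74 to 4.88 kb (PAX9), 3.58 to 3.74 kb (LHX9) and 4.30 to 4.39 kb (IRX4) inside the gene, and in each library it reached another RefSeq start of the same gene. At PAX2 the highest peak lay 81.1 to 82.0 kb from any RefSeq start in 4 libraries and on a start in V16D/H19 replicates 1 and 2. At LHX6, LHX8 and IRX1 the H3K4me3 peaks inside the window lay 4.78 to 47.0 kb from the nearest RefSeq start, with folds of 3.84 to 8.18 in the 4 or 5 libraries that had them. Promoter counts given here use the outermost start and miss these cases.

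An H3K4me3 peak within 1 kb of the gene start was found for 31, 31 and 33 of the 57 genes in V16D/CTL versus 32, 36 and 31 in V16D/H19. The means were 31.7 ± 1.15 and 33.0 ± 2.65 (SD, n = 3), or 55.6% and 57.9% of the genes, against 62.2% and 62.8% of all protein-coding genes. The difference of 1.33 genes was smaller than the SD within V16D/H19. Covered length was compared with limma on log2 (kb + 0.5) over the 14011 genes with a peak in at least 2 libraries, and p-values were adjusted by Benjamini-Hochberg over all of them. None of the 45 genes of the list that could be tested passed an adjusted p of 0.05 in limma, where 4 were higher (8.89%) and 1 lower (2.22%) at an unadjusted p under 0.05, beside 6.18% and 3.73% of all genes. Over all genes, 0.243% passed as higher and 0.143% as lower in V16D/H19. The median log2 difference was 0.03 over the 45 genes and 0.01 over all.

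Values that came closest to a difference in H3K4me3 were mostly short covered lengths that were greater in V16D/H19. DLX5, a craniofacial and bone factor, was covered over 0.736, 0.419 and 0.658 kb in V16D/CTL versus 1.05, 1.10 and 0.749 kb in V16D/H19, so the groups did not overlap. The difference was 0.41 on the log2 scale (SE 0.14, limma adjusted p = 0.353). EMX1, a cortical factor, was covered over 1.02, 1.04 and 0.989 kb against 1.77, 1.44 and 1.06 kb, again without overlap, with a log2 difference of 0.33 (SE 0.12, limma adjusted p = 0.416). EN2 and DLX3 also lay higher without overlap in V16D/H19, and DLX2 lay lower. Covered length adds up all peaks of a window. The longest single H3K4me3 peak overlapped between the groups at DLX5, EMX1 and DLX3, and was longer without overlap at EN2. In covered length, the 4 higher genes are 8.89% of the 45 tested, against 8.47% of all 14011 genes. The 1 lower gene is 2.22% against 5.98%, so the share of higher genes was that of the genome.

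Fold over input at the highest H3K4me3 peak gave no call in limma either, for the 35 genes with a peak in all 6 libraries (1 higher and 0 lower at an unadjusted p under 0.05) or for any of the 13359 genes tested (573 higher and 259 lower at that unadjusted p). By direction, 16 of the 35 were higher and 19 lower, and when each library was centred on its median the split was 9 to 26. Of all genes, 44.4% were lower uncentred and 51.6% centred. Groups without overlap made up 8.57% of the 35 genes in the higher direction, where 7.29% of all genes did so, and 5.71% in the lower direction, where 3.87% did. EN1, a midbrain-hindbrain factor, had folds of 8.52, 8.04 and 8.16 in V16D/CTL versus 11.6, 14.2 and 13.9 in V16D/H19. All 3 V16D/H19 values were above the others, and the log2 difference was 0.68 (SE 0.33, limma adjusted p = 0.797).

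H3K27me3 at promoters was several times as frequent among these genes as in the genome. A peak within 1 kb of the start was called for 26, 26 and 29 of the 57 genes in V16D/CTL versus 23, 25 and 28 in V16D/H19. The means were 27 ± 1.73 and 25.3 ± 2.52 (SD, n = 3), or 47.4% and 44.4% of the genes, against 10.9% and 9.61% of all protein-coding genes. The difference of -1.67 genes was within the SD of either group. In the whole window the counts were 34, 34 and 34 against 33, 33 and 31 genes. At peaks with a −log10 q of at least 5 the promoter counts were 6, 10 and 12 in V16D/CTL versus 0, 3 and 2 in V16D/H19, and every V16D/CTL library was above every V16D/H19 library. The means of 9.33 and 1.67 genes are 16.4% and 2.92% of the list, and for all protein-coding genes the same threshold left 1.64% and 0.41%. The count of strong peaks was thus lower in both the list and the genome.

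**Figure D2:**
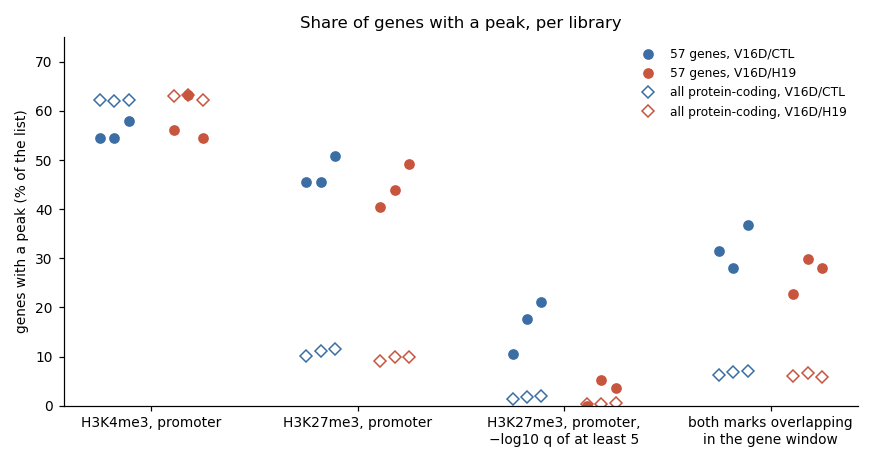
Share of genes with a peak in each library (in %), for the 57 genes (filled circles) and for all protein-coding genes (open diamonds), with V16D/CTL in blue and V16D/H19 in red, replicates 1 to 3 from left to right. The H3K27me3 promoter share of the 57 genes lies far above that of all genes, and the groups separate in H3K27me3 at −log10 q of at least 5.

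Covered length of H3K27me3 was shorter in V16D/H19 for 33 of the 35 genes of the list that could be tested, and VAX1 alone passed the threshold. The median log2 difference was -0.22 over the 35 genes and -0.25 over the 4559 genes tested, so the medians were close. By direction the list stood apart, with 33 of the 35 lower beside 70.7% of all genes tested. That difference in shares was not tested. Limma called 1.75% of all tested genes lower and 0.0877% higher, and 1 of 35 lower in the list (6 at an unadjusted p under 0.05, all lower). Those 6 are 17.1% of the 35, beside 16.2% of all genes lower at that p. VAX1, a factor of the ventral forebrain and optic stalk, had 1.20, 1.70 and 1.29 kb under H3K27me3 in V16D/CTL and no peak in the 3 V16D/H19 libraries. The log2 difference was -1.91 (SE 0.42, limma adjusted p = 0.0429), a value that depends on the added 0.5 kb and is no bound on the fold. VAX1 passed the filter on peaks through the V16D/CTL libraries alone, its peaks were weak (folds of 3.61 to 3.86), and the exact two-sided permutation test of its covered length gave p = 0.1, the smallest that 3 against 3 libraries allow. Its call was lost in 9 of 12 alternatives, among them leaving out any library other than V16D/CTL replicate 1, with limma adjusted p from 0.0267 to 0.439. H3K4me3 at VAX1 was present in all 6 libraries, over 1.60, 1.30 and 1.37 kb against 1.62, 1.47 and 1.44 kb.

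PAX7, a neural crest and muscle stem cell factor, showed the next largest difference. Its H3K27me3 covered 5.72, 8.76 and 7.58 kb in V16D/CTL versus 0.294, 2.15 and 3.87 kb in V16D/H19, and the groups did not overlap. The means were 7.35 ± 1.53 and 2.10 ± 1.79 kb (SD, n = 3), with a log2 difference of -1.89 (SE 0.49, limma adjusted p = 0.0662). The fold over input at PAX7 was 4.21, 4.09 and 4.46 against 3.39, 3.73 and 3.79, also without overlap (log2 difference -0.23, SE 0.10, limma adjusted p = 0.319). PAX2, a kidney and midbrain-hindbrain factor, was covered over 10.3, 15.2 and 14.9 kb in V16D/CTL versus 8.11, 8.99 and 9.16 kb in V16D/H19. The V16D/H19 values lay close together and all below the others, with a log2 difference of -0.57 (SE 0.19, limma adjusted p = 0.128). LHX4 was covered over 16.3, 16.4 and 17.8 kb against 12.5, 13.5 and 12.9 kb, a log2 difference of -0.36 (SE 0.15, limma adjusted p = 0.227). Both groups were tight at LHX4, and the gap between them exceeded the range within either.

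In all, 13 of the 35 genes (37.1%) had every V16D/H19 library below every V16D/CTL library in H3K27me3 covered length, where 19.2% of all 4559 genes did, and 1 gene (2.86%) had the reverse, where 2.92% did. The 13 genes were PAX2, PAX5, PAX6, PAX7, LHX1, LHX4, LHX5, NKX2-2, DLX4, DLX5, OTX2, BARHL2 and VAX1. EN2 was the exception, with 2.33, 2.62 and 2.16 kb in V16D/CTL versus 2.65, 3.26 and 3.22 kb in V16D/H19 (log2 difference 0.30, SE 0.28, limma adjusted p = 0.589).

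**Figure D3:**
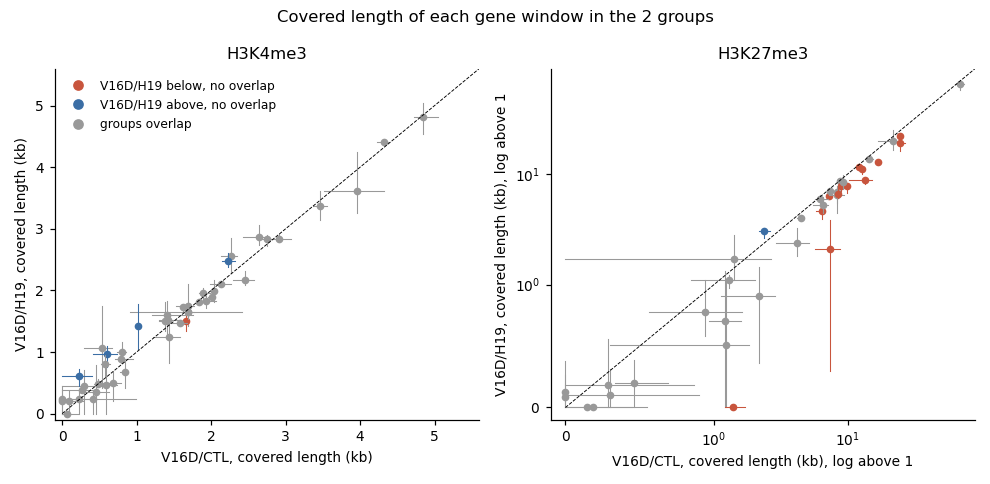
Covered length of each gene window (kb), V16D/CTL on the x axis and V16D/H19 on the y axis, for H3K4me3 (linear axes) and H3K27me3 (axes linear below 1 kb and log above). Points are means of 3 libraries, bars span the lowest to the highest library, and the dashed line marks equal values. For H3K27me3, 13 genes lie below the line without overlap of the groups and EN2 above it, while the H3K4me3 points follow the line.

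At LHX4, OTX2 and BARHL2 the longest peak was shorter in V16D/H19 and the window held more peaks. The longest H3K27me3 peak touching the LHX4 window measured 11.3, 10.7 and 12.4 kb in V16D/CTL versus 5.57, 3.90 and 7.77 kb in V16D/H19, while the number of peaks in the window was 6, 3 and 7 against 10, 11 and 8. At OTX2, an anterior brain and eye factor, the longest peak was 15.9, 17.0 and 14.5 kb against 3.87, 5.63 and 7.14 kb, with 3, 2 and 2 peaks against 6, 4 and 6. At BARHL2, a factor of retinal and spinal neurons, it was 10.1, 8.22 and 7.32 kb against 2.85, 4.95 and 4.89 kb, with 1, 2 and 2 peaks against 5, 4 and 3. In these 3 genes the groups did not overlap. The longest peak was shorter without overlap at 12 of the 35 genes (34.3%) and at 15.6% of all tested genes, and 0 of the 35 genes had longer peaks without overlap in V16D/H19, where 2.13% of all genes did. The number of peaks did not follow in all 12: the PAX5 window held 23, 20 and 23 peaks against 16, 17 and 19. The VAX1 window held 3, 1 and 1 against 0, 0 and 0, and at GBX1 and LHX8 the numbers overlapped. LHX4, OTX2 and BARHL2 are thus examples, and the share of all genes with more peaks is not given here. The median of the longest peak over the 35 genes was 6.14 kb in V16D/CTL versus 4.04 kb in V16D/H19, against 1.07 and 0.834 kb over all tested genes. The H3K27me3 lists as a whole covered 45.1, 58.8 and 62.2 Mb in V16D/CTL and 42.3, 47.5 and 48.4 Mb in V16D/H19, and the part of this overall difference in the values of single genes was not tested.

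**Figure D4:**
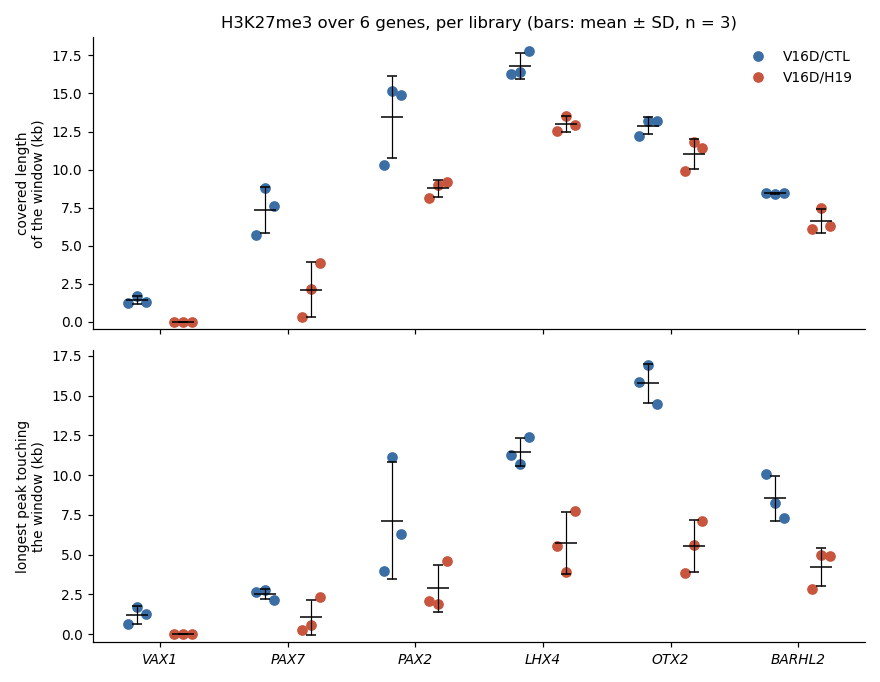
H3K27me3 over VAX1, PAX7, PAX2, LHX4, OTX2 and BARHL2 in each library, as covered length of the window (top, kb) and as the longest peak touching the window (bottom, kb), with mean ± SD (n = 3) as black bars. The V16D/H19 libraries lie below the V16D/CTL libraries in the top panel for all 6 genes, and in the bottom panel for all but PAX7 and PAX2.

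Restricting H3K27me3 to peaks with a −log10 q of at least 5 left 12 genes of the list among 439 tested. Limma called 5 of these 12 lower in V16D/H19 and none higher, and it called 19.8% of the 439 lower and 0 higher. All 5 met the filter of a peak in at least 2 libraries through V16D/CTL alone, so these calls follow in part from the filter and are given as a description. PAX6 had 22.2, 22.7 and 20.8 kb under such peaks in V16D/CTL versus 0.7, 0 and 0 kb in V16D/H19. LHX8, a factor of forebrain cholinergic neurons, had 11.96, 11.54 and 11.80 kb against 0 in the 3 V16D/H19 libraries. LHX3, DBX1 and BARHL1 likewise had such peaks in the 3 V16D/CTL libraries and in 0 of the V16D/H19 libraries. At the threshold of the authors the same 5 genes stayed covered in all 6 libraries. LHX3 was covered over the same length (mean 8.70 ± 0.342 and 8.67 ± 0.0656 kb), so there the strength of the call and not its presence differed. PAX6 was covered over less in every V16D/H19 library than in any V16D/CTL library, as given above. At LHX8, DBX1 and BARHL1 the covered lengths of the groups overlapped. Because −log10 q also depends on the depth of a library, which was not analysed here, these counts stand beside the shares of strong peaks given above for each whole list.

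Fold over input, which MACS2 gives for each broad H3K27me3 peak, was lower in V16D/H19 for 26 of the 28 genes with a peak in all 6 libraries. The median log2 difference was -0.19 over these genes and -0.08 over all 2725 tested, of which 74.2% were lower. With each library centred on its median, 21 of the 28 were lower (median -0.11), beside 52.0% of all tested genes (median -0.0053). None of the 28 passed an adjusted p of 0.05 in limma (7 were lower at an unadjusted p under 0.05, or 25%, beside 13.5% of all genes), and 0.0734% of all tested genes passed as lower. LHX3 had folds of 5.76, 5.90 and 5.72 against 5.02, 5.22 and 4.73, and LHX8 had 5.47, 6.34 and 6.19 against 5.01, 5.06 and 4.93. For both genes the groups did not overlap, with log2 differences of -0.22 (SE 0.10, limma adjusted p = 0.317) and -0.26 (SE 0.10, limma adjusted p = 0.261). Such separation was seen in 8 of the 28 genes (28.6%), all lower, where 17.9% of all tested genes were lower and 2.35% higher.

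Windows in which an H3K4me3 peak overlapped an H3K27me3 peak of the same group and replicate number, the bivalent state, were counted for 18, 16 and 21 genes in V16D/CTL versus 13, 17 and 16 in V16D/H19. The means of 18.3 ± 2.52 and 15.3 ± 2.08 (SD, n = 3), with counts that overlap, are 32.2% and 26.9% of the list, against 6.75% and 6.21% of all genes. PAX2, LHX2, LHX4, LHX5, NKX2-2, DLX5, MEIS2, EMX1, EMX2, EN2 and GBX1 were bivalent in all 6 libraries. NKX2-1, a lung, thyroid and forebrain factor, was bivalent in the 3 V16D/CTL libraries and in V16D/H19 replicate 2 alone, as its H3K27me3 covered 1.84, 1.57 and 0.302 kb against 0, 1.06 and 0.47 kb while its H3K4me3 was present in all 6. PAX7 was bivalent in 3 V16D/CTL libraries and 1 V16D/H19 library. In the other direction, BARHL1 and DBX1, a factor of spinal interneuron progenitors, had H3K27me3 in all 6 libraries and a short H3K4me3 call in V16D/H19 replicates 2 and 3 only. These calls covered 0.448 and 0.251 kb at BARHL1 and 0.385 and 0.21 kb at DBX1, with no call in V16D/CTL, and being absent from V16D/H19 replicate 1 they did not separate the groups.

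Some promoters differed in their H3K27me3 call between the groups. EN1 had an H3K27me3 promoter peak in 1 of 3 V16D/CTL libraries and in 3 of 3 V16D/H19 libraries. Its covered length was 0.56, 0.645 and 1.62 kb against 1.11, 0.584 and 0.647 kb, so the groups overlapped. The authors' differential site over the EN1 promoter, described below, was lower in V16D/H19. The share of all genes with a promoter call like that of EN1 is not given here. Over the 300-base RefSeq promoters, 34 of the 65 sequences of these genes lay under H3K27me3 in at least 1 library and 22 in all 6. The starts of PAX2 and BARHL1 printed above were the 2 that did so in all 3 V16D/CTL and no V16D/H19 library, 2 of 34 beside 1.77% of all such promoters, and 0 did the reverse, beside 0.216% of all. For H3K4me3, 29 of the 65 lay under a peak in at least 1 library and 24 in all 6, and none was called in every library of 1 group and no library of the other, beside 0.0945% (V16D/CTL alone) and 0.356% (V16D/H19 alone) of all such promoters. At the PAX2 start H3K4me3 stayed called in the 6 libraries. Within 1 kb of the BARHL1 start H3K27me3 stayed called in all 6 libraries, so only the call over the 300 bases differed there.

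The 2 deposited tables of differential sites, made by the authors with DiffBind, list sites that they called different between the groups. The H3K27me3 table held 20 sites annotated to 15 of the 57 genes, and the H3K4me3 table held 3 sites annotated to 3. All 23 had a lower concentration (normalized reads on a log2 scale, given as the authors' mean of each group) in V16D/H19. The direction was common to the tables, in which 91.5% of all H3K27me3 sites and 76.0% of all H3K4me3 sites were lower. Of all protein-coding genes, 3.24% had an H3K27me3 site and 7.07% an H3K4me3 site annotated to them. Among genes with an H3K27me3 window peak in at least 2 libraries, 15 of the 35 in the list had a site, beside 12.9% of all such genes, and for H3K4me3 it was 3 of the 45, beside 9.62%.

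For H3K27me3 the median difference of the 20 sites was -0.57 (range -0.95 to -0.22), the same as that of the whole table. The largest differences lay at sites of modest concentration. The PAX7 site (chr1:18627843-18648698, 20.9 kb, over its promoter) had 7.80 in V16D/CTL versus 6.91 in V16D/H19. A site at -23.2 kb from the start of BARHL1 (chr9:132554750-132558971) had 5.67 and 4.72, whereas the site over BARHL1 itself (chr9:132575367-132591659) had 8.61 and 8.31. A site at -74.8 kb from the start of PAX2 (chr10:100652182-100660791) had 6.87 and 6.02, and the site annotated to its promoter (chr10:100733937-100753664) had 8.29 and 7.77. LHX4 (chr1:180230230-180244035) had 8.82 and 8.15, the largest step among sites above a concentration of 8. The smallest step belonged to the site of highest concentration and largest width, 51.8 kb over DLX5 and DLX6 (chr7:96981639-97033403), with 10.2 and 9.97. The concentrations are not scaled to the length of a site. The table lists only sites called different, so sites that were not called are missing from this comparison of steps.

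EN2 had 3 H3K27me3 sites, all outside the window used here, at concentrations of 7.34 and 6.72, 6.79 and 6.03, and 7.67 and 7.27 in V16D/CTL and V16D/H19. Peaks over the site upstream at chr7:155434878-155444576 covered 2.61, 4.35 and 5.78 kb against 1.04, 1.44 and 1.19 kb. The direction there was opposite to that of the covered length of the gene window. The authors called this site different with these same libraries, so the separation of the groups over it is a description and no further support. NKX2-1 had a site at -2.26 kb from its start (chr14:36523406-36529825) with 6.43 and 5.69, and EN1 had 2 sites with 6.52 and 5.87 (promoter) and 6.87 and 6.21 (-8.17 kb from the start). The remaining sites lay over promoters of DBX1, DLX4, GBX1, LHX3, LHX8, NKX2-2 and PAX5, with differences of -0.58 to -0.27.

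Another 7 sites of the H3K27me3 table overlapped the windows of these genes but were annotated to a neighbouring or antisense gene, and all 7 were lower in V16D/H19. They lay over PAX6 (annotated to RCN1, 9.72 and 9.30), PAX3 (CCDC140, 9.53 and 9.22), OTX2 (OTX2-AS1, 9.60 and 9.30), LHX1 (8.76 and 8.37), LHX2 (8.92 and 8.53), EMX2 (EMX2OS, 6.71 and 6.05) and NKX2-1 (NKX2-1-AS1, 5.98 and 5.02). With these, 22 of the 57 genes had an H3K27me3 site annotated to them or over their window. The share of all genes by this wider count is not given here, and the shares above count annotated sites alone. ChIP-seq reads carry no transcript strand, so a site over an antisense pair cannot be assigned to either gene.

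**Figure D5:**
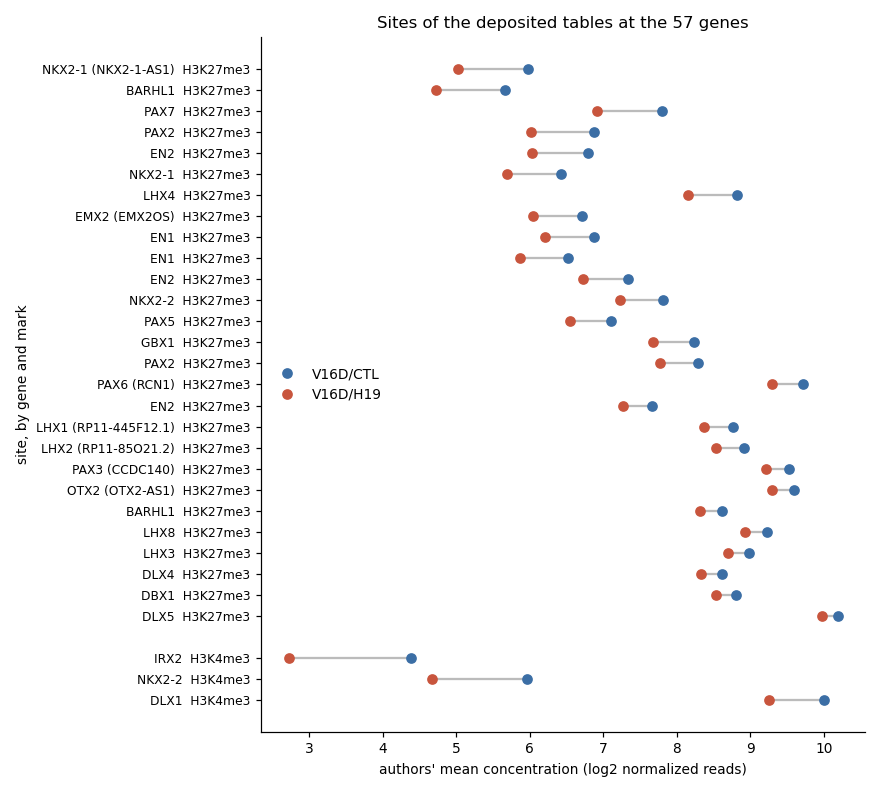
The authors' mean concentration (log2 normalized reads, x axis) in V16D/CTL (blue) and V16D/H19 (red) at each site of the deposited tables annotated to or overlapping the 57 genes (y axis, annotated symbol in brackets where it is another gene). All V16D/H19 points lie left of the V16D/CTL points, with steps from -0.22 at DLX5 to -0.96 for H3K27me3 and -1.67 for the H3K4me3 site at IRX2.

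The 3 H3K4me3 sites differed in kind. The DLX1 site (chr2:172084139-172089385) spans the whole promoter domain and had 10.0 in V16D/CTL versus 9.25 in V16D/H19, although its covered length was alike in the libraries (mean 4.85 ± 0.176 and 4.82 ± 0.253 kb). The NKX2-2 site (chr20:21513854-21515246) had 5.96 and 4.67, and peaks over it covered 1.05, 0.889 and 0.928 kb against 0.532, 0.454 and 0.73 kb. These V16D/H19 values were all below the others. Since the authors called the site different with these same libraries, this is a description and no further support. The authors annotated the site to a promoter, and a second RefSeq promoter of the gene lies close by (chr20:21512911-21513210, minus strand). The site lies inside the gene, apart from the outermost start used here (chr20:21522689). Within 1 kb of that start an H3K4me3 peak was called in all 6 libraries. The longest H3K4me3 peak touching the window measured 1.53, 1.58 and 1.37 kb in V16D/CTL versus 1.60, 1.87 and 1.35 kb in V16D/H19, so the groups overlapped. NKX2-2 is a determinant of ventral neural tube and pancreatic endocrine cells. It was also in the H3K27me3 table as lower (7.81 and 7.23). NKX2-2 was the only gene of the 57 with a site in both tables. The IRX2 site (chr5:2739354-2739847), 11.8 kb from the annotated start, had 4.39 and 2.72 and was covered by a peak in the 3 V16D/CTL libraries and in V16D/H19 replicate 2.

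The same measures were taken for 80 other homeobox genes. Both marks were called in all 6 libraries for 31.3% of them, H3K4me3 alone for 22.5% and H3K27me3 alone for 10.0%. Their H3K27me3 promoter counts were 35, 37 and 36 in V16D/CTL versus 30, 36 and 32 in V16D/H19, and at a −log10 q of at least 5 they were 10, 13 and 12 against 4, 5 and 3. Of their 49 genes tested for H3K27me3 covered length, 15 (30.6%) were lower in V16D/H19 without overlap, beside 13 of 35 (37.1%) for the 57 genes. The deposited H3K27me3 table held 28 sites at 21 of the 80, and all 28 were lower. RefSeq sequences were found for 54 of the 80, with a median of 20.5 CpG and with TAAT or ATTA in 46.3%. The difference between the 2 lists was not tested.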

How the data were processed

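H3K4me3 and H3K27me3 were profiled by ChIP-seq (75 bp single-end reads) in 3 V16D/CTL and 3 V16D/H19 replicates, and groups were taken from the sample titles. The authors called peaks with MACS2 in each library against the input of that replicate, narrow for H3K4me3 and broad for H3K27me3 (hg38). The versions of the tools and the aligner are not given in the sources used here. Each deposited peak carries a MACS2 score, its enrichment as a linear fold (ratio) of ChIP over input, and −log10 values of its p-value and q-value. The 2 deposited DiffBind tables, annotated with ChIPseeker, give the group concentrations as log2 mean normalized reads, used here as the authors' means. They also give a log2 fold, a p-value and an FDR per site, which are the authors' own comparison and were not used.

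Gene positions came from RefSeq GRCh38.p14 (20037 protein-coding genes). Strand came from RefSeq promoters or, by symbol alone, GENCODE, for 19675 (98.2%), among them 14 of the 57 genes from GENCODE only; where both gave a strand, 15226 of 15289 were equal. Covered length was tested as log2 (kb + 0.5) for genes with a peak in at least 2 libraries, and fold as log2 for genes with a peak in all 6, with limma 3.58.1 (R 4.3.3, trend, two-sided, Benjamini-Hochberg over all genes tested) and an adjusted p of 0.05. The fits were tested on simulated data. Alternatives were a −log10 q of at least 5, lists of equal length, pseudocounts of 0.2 and 1 kb, other filters, promoters only, centred folds, a replicate block and leaving out each library.

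Genes were named by a fixed rule: those in a deposited table, those called by limma, those whose promoter call separated the groups (all 3 libraries of 1 group and at most 1 of the other), and the 3 with the longest coverage per mark. Genes without any peak of a mark were to be named if 10 or fewer. All other genes named were chosen after their values were seen, as were the measures of the longest peak and of the 300-base promoters. The genes and lists were chosen with earlier results of these data known.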

Additional observations from a re-analysis of the deposited data

How the results depend on the processing

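The number of H3K4me3 calls among these genes stayed at 0 under every alternative run. For H3K27me3 covered length the 1 gene called became 5 of 12 tested at a −log10 q of at least 5 (all 5 tested through their V16D/CTL peaks alone) and 2 with lists of equal length. It became 0 with a pseudocount of 0.2 kb, with a peak in at least 1 library, with a peak in all 6 libraries (which drops VAX1), at promoters only and with the replicate block. Without each library in turn it ranged from 0 to 2. The cause of these shifts was not tested. VAX1 was still called with a pseudocount of 1 kb, with lists of equal length and without V16D/CTL replicate 1. PAX7 was called with lists of equal length (adjusted p = 0.028) and PAX2 without V16D/CTL replicate 1 (adjusted p = 0.0437). Over all genes, the 84 called became 190 with lists of equal length, 55 with a pseudocount of 0.2 kb, 10 at promoters only and 0 without V16D/CTL replicate 2 or replicate 3. Leaving out 1 V16D/H19 replicate gave 2, 1 and 5. H3K27me3 fold calls in the list stayed at 0 under every alternative, beside 0 to 4 over all genes. The 54 genes called for H3K4me3 covered length over the whole table became 19, 23 and 20 without a V16D/CTL replicate, 11, 15 and 61 without a V16D/H19 replicate, 22 with the replicate block, 31 with a peak in all 6 libraries and 11 at promoters only.

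The H3K27me3 promoter difference of -1.67 genes became -7.67 at a −log10 q of at least 5, and ranged from -3 to -0.5 without each library. The H3K4me3 promoter difference ranged from -0.167 to 2.33, and the bivalent difference of -3 from -4.17 to -1.67.

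Same-numbered replicates did not deviate together (correlations from -0.0333 to 0.0373), so the numbers were not read as pairs. The replicate block left the H3K27me3 covered length calls at 70 genes over the whole table and 0 in the list, and changed no other call in the list. With 3 libraries a group and peaks in place of reads, the fits could miss differences, large ones included, and read depth was not analysed here.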
